A study of Eucalyptus urophylla with 24 samples.

Results

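Terminal buds of triploid *Eucalyptus urophylla* were compared with those of diploid *E. urophylla*, gene by gene, over 3 triploid and 3 diploid RNA-seq libraries out of 24 libraries in the series. The 6 libraries were taken by their labels (tissue terminal bud, genotype triploid or diploid), and of the 26033 genes listed, 20117 passed a filter on low counts and were tested. The triploids were obtained by sexual polyploidization, in work cited by the study that doubled megaspore chromosomes with colchicine, and the diploids were their control. The other libraries come from young, mature and senescent leaves of both ploidies. All triploid titles share one code and all diploid titles another, and neither the labels nor the methods say how many clones or trees stand behind the 3 libraries of a group. A p-value here thus rests on how far these libraries differ within a group, which may be technical, and ploidy cannot be told apart from any other difference between the plants sampled.

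The terminal bud holds the shoot apical meristem, the organ boundaries and the youngest leaf primordia, with the first strands of vascular tissue running into them. Its cells divide, make ribosomes and histones, and decide between further leaves and flowers, a choice in which MADS-box and SQUAMOSA PROMOTER-BINDING-LIKE (SPL) factors take part in Arabidopsis. In eucalypts the young shoot also forms the oil glands in which terpenes are stored. A triploid cell carries an additional chromosome set, and since RNA-seq measures each transcript as a share of all transcripts, a rise of all genes together leaves no trace in these values. Levels are given as FPKM (fragments per kilobase of transcript, scaled to the mapped fragments of the library). Fold changes are log2 ratios of triploid over diploid buds from the read counts. They come from edgeR's quasi-likelihood test after TMM scaling, which sets the libraries to a common level over most genes, and adjusted p-values are Benjamini-Hochberg values over all 20117 genes. A gene was called at an adjusted p under 0.05. In bulk tissue, fewer cells of a type and less RNA per cell cannot be told apart.

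Total counts lay between 48564812 and 51473171 in the triploid bud libraries and between 56374622 and 62589379 in the diploid ones. Diploid bud library 3 stood apart from the other diploid buds, with a median absolute log2 difference of 0.366 per gene from the other 2, against 0.227 to 0.23 for those and 0.141 to 0.163 among the triploid buds. Its profile also correlated more closely with the mean of the diploid young leaf libraries over the tested genes (Pearson's r = 0.946, against 0.913 and 0.914 for diploid buds 1 and 2). Triploid buds correlated with triploid young leaves at 0.910 to 0.915. The tissue label was checked against markers. A *KNAT1*-type gene (*Eucgr.H03292*), a homeobox factor of the meristem, lay between 13.2 and 15.2 FPKM in triploid buds and between 12.2 and 16.7 FPKM in diploid buds, against 1.49 to 2.02 FPKM over young leaves of both ploidies. A *KNAT2*-type gene (*Eucgr.F00106*) was likewise higher in buds, at 21.1 to 24.9 FPKM in triploid and 17.6 to 31.3 FPKM in diploid buds, against 1.88 to 3.24 FPKM in young leaves. The other knotted-type and meristem markers did not separate buds from leaves in that way. The *KNAT3* and *KNAT4* types (*Eucgr.C00434* and *Eucgr.C02727*) were lower in buds than in young leaves, a second *KNAT2*-type gene (*Eucgr.F00107*) was at or near 0 in both, a *CUP-SHAPED COTYLEDON 1* gene (*Eucgr.F01539*) overlapped between them, and *CLAVATA1* (*Eucgr.H00963*) was higher in mature leaves, at 15.9 to 18.9 FPKM, than in any bud. Of 3 RuBisCO small chain genes, which mark the green leaf, the most abundant (*Eucgr.K02223*) was lower in buds (111 to 175 FPKM) than in young leaves (285 to 326 FPKM), while *Eucgr.B03013* and *Eucgr.C00150* were higher in buds. A *SEPALLATA 1* gene (*Eucgr.I02058*), a floral organ factor, was at 0 in all 6 bud libraries, while an AGL9-type floral gene was present, as given with the flowering genes. No gene description names SHOOT MERISTEMLESS, WUSCHEL or CLAVATA3, so these meristem markers were not checked.

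Of the 20117 genes tested, 6390 (31.8%) were called, 3143 higher (15.6%) and 3247 lower (16.1%) in triploid buds. At least a 2-fold change was found in 2644 of the called genes (13.1% of those tested), 1193 higher (5.93%) and 1451 lower (7.21%). The split between higher and lower depends on the scaling. The median of all genes was −0.04 on the log2 scale after TMM scaling and −0.27 with library totals alone, which called 1881 genes higher (9.35%) and 5138 lower (25.5%). With the size factors of the median ratio, 3165 genes were called higher and 3243 lower. Higher calls made up 49.2% of all calls under TMM and 26.8% under library totals alone. All 3247 genes called lower stayed lower under library totals alone, while 1881 of the 3143 called higher (59.8%) stayed higher and none turned lower. Without diploid bud library 3, 8987 of 20352 genes tested (44.2%) were called, 4602 higher (22.6%) and 4385 lower (21.5%). These included 3088 of the 3143 genes called higher and 3103 of the 3247 called lower with all 6 libraries. Relative to TMM, library totals alone moved the median of all genes by −0.23, and the medians of 6 of 25 gene lists described here turned negative while 5 stayed above 0. In FPKM, the triploid libraries all lay above the diploid ones in 3102 tested genes (15.4%) and all below in 7673 (38.1%). The plot of all fold changes and of calls by setting shows the shift of the whole distribution.

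**Figure D1:**
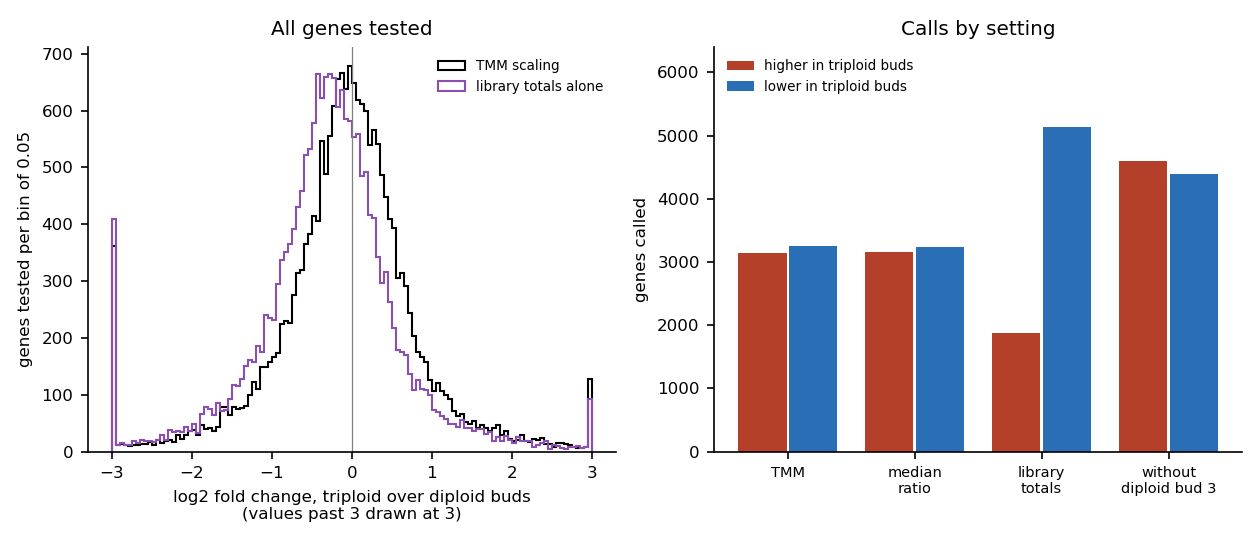
Left, number of tested genes by log2 fold change of triploid over diploid terminal buds (x axis), after TMM scaling (black) and with library totals alone (purple). Right, genes called higher (red) and lower (blue) in triploid buds under each setting; the split is nearly even with TMM (3143 and 3247) and uneven with library totals alone (1881 and 5138).

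Among the genes of largest change with a described product, the strongest up-regulation in triploid buds was that of a probable mannitol dehydrogenase gene (*Eucgr.D01087*), of a family of alcohol dehydrogenases. It measured 12.7, 13.3 and 8.83 FPKM in the triploid buds, against 0.106, 0.199 and 0.279 FPKM in the diploid buds (log2 fold change 6.05 ± 0.33 (SE), adjusted p = 5.3e-05). A gene for heat shock protein 83 (*Eucgr.A02734*), a chaperone of the HSP90 family, measured 14, 16.4 and 14.6 FPKM in the triploid buds, against 0.325, 0.175 and 0.516 FPKM in the diploid buds (log2 fold change 5.68 ± 0.32 (SE), adjusted p = 6e-05). In both genes the lowest triploid library was far above the highest diploid one, where the naming rule required no overlap.

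Several of these genes encode transporters. An auxin efflux carrier of the PIN5 type (*Eucgr.B01405*), a family that moves auxin across membranes inside the cell in Arabidopsis, measured 50.4, 45.4 and 36 FPKM in the triploid buds, against 2.62, 3.27 and 2.25 FPKM in the diploid buds (log2 fold change 4.23 ± 0.22 (SE), adjusted p = 4.7e-05). A WAT1-related transporter (*Eucgr.F03778*) measured 52.3, 50.05 and 40.1 FPKM in the triploid buds, against 4.19, 4.31 and 3.83 FPKM in the diploid buds (log2 fold change 3.75 ± 0.15 (SE), adjusted p = 2.9e-05). A probable sulfate transporter 3.4 (*Eucgr.J02996*) had a log2 fold change of 4.46, amino acid permease 3 (*Eucgr.F03827*) of 4.35, the metal-nicotianamine transporter *YSL1* (*Eucgr.D01684*) of 3.74 and equilibrative nucleotide transporter 8 (*Eucgr.C01329*) of 3.69 (edgeR adjusted p = 9.4e-05, 0.0023, 0.0012 and 8.8e-05). Triploid and diploid libraries did not overlap in any of these 6 genes, as the rule that named them required. Outside transport, the cellulose synthase-like gene *CSLB4* (*Eucgr.K00781*) measured 21.5, 21 and 22.7 FPKM in the triploid buds, against 1.87, 1.77 and 2.38 FPKM in the diploid buds (log2 fold change 3.66 ± 0.13 (SE), adjusted p = 2.7e-05).

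Several abundant genes of large change encode enzymes that make or use methyl groups. A methionine synthase gene (*Eucgr.A02126*), which transfers a methyl group from folate to homocysteine, measured 675, 566 and 672 FPKM in the triploid buds, against 40.5, 43.6 and 95.6 FPKM in the diploid buds (log2 fold change 3.66 ± 0.32 (SE), adjusted p = 0.00031). Serine hydroxymethyltransferase 4 (*Eucgr.H02679*), which loads one-carbon units onto folate, measured 792, 672 and 777 FPKM in the triploid buds, against 168, 173 and 261 FPKM in the diploid buds (log2 fold change 2.13 ± 0.17 (SE), adjusted p = 0.0002). The triploid libraries were close to each other in both genes, and diploid library 3 was the highest of the diploids. By KEGG pathway, cysteine and methionine metabolism had 32 higher and 21 lower of 132 genes (median log2 fold change 0.09, and 21 higher and 33 lower under library totals alone) and the one-carbon pool by folate 5 and 1 of 29. A short methionine synthase-like entry (*Eucgr.L02766*), at positions 1 to 327 of an unplaced scaffold, was at 0 in all 3 triploid buds.

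A caffeic acid 3-O-methyltransferase gene (*Eucgr.E03875*), of the enzyme family that methylates lignin precursors, measured 5502, 4953 and 5554 FPKM in the triploid buds, against 1166, 1139 and 1692 FPKM in the diploid buds (log2 fold change 2.24 ± 0.16 (SE), adjusted p = 0.00014). A second gene of that description (*Eucgr.H00353*) measured 918, 795 and 978 FPKM in the triploid buds, against 142, 134 and 198 FPKM in the diploid buds (log2 fold change 2.74 ± 0.16 (SE), adjusted p = 6.7e-05). Aldehyde dehydrogenase 2C4 (*Eucgr.C03859*), which oxidises coniferaldehyde and sinapaldehyde in Arabidopsis, measured 56.6, 50.6 and 65.1 FPKM in the triploid buds, against 2.84, 3.71 and 8.66 FPKM in the diploid buds (log2 fold change 3.75 ± 0.38 (SE), adjusted p = 0.0006). The list of secondary wall and lignin genes moved both ways: 16 of 91 tested members were called higher and 14 lower (median log2 fold change 0.06). Under library totals alone the list had 14 higher and 24 lower. Its summed level was 8479, 7872 and 8499.5 FPKM in the triploid buds, against 3697, 3672 and 4547 FPKM in the diploid buds, most of it from the methyltransferase *Eucgr.E03875* in the triploid buds.

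Most terpene synthases tested were higher in triploid buds, while other terpenoid pathways moved both ways or down. By KEGG, terpenoid backbone biosynthesis had 22 higher and 8 lower of 64 genes (median log2 fold change 0.06), carotenoid biosynthesis 13 and 15 of 87, and diterpenoid biosynthesis 3 and 12 of 38 (median −0.43). 1-deoxy-D-xylulose-5-phosphate synthase 2 (*Eucgr.I00566*), the entry enzyme of the plastid pathway to isoprenoids, measured 178, 144 and 183 FPKM in the triploid buds, against 27.8, 27.6 and 39 FPKM in the diploid buds (log2 fold change 2.65 ± 0.16 (SE), adjusted p = 7.2e-05). A nerolidol synthase (*Eucgr.E03598*), which makes a sesquiterpene alcohol, measured 56.8, 49.1 and 55 FPKM in the triploid buds, against 2.47, 2.03 and 3.5 FPKM in the diploid buds (log2 fold change 4.55 ± 0.19 (SE), adjusted p = 2.9e-05). Every triploid library was above every diploid one in both genes, which the naming rule required of *Eucgr.E03598*. Of the terpene synthases, 15 of 26 tested members were called higher and 4 lower (median log2 fold change 0.98), and these counts were 17 higher and 5 lower without diploid bud library 3, and 12 higher and 5 lower with scaling by library totals alone. Named from this list, a germacrene D synthase gene (*Eucgr.F03400*) measured 144, 135 and 155 FPKM in the triploid buds, against 20.2, 15.5 and 27.8 FPKM in the diploid buds (log2 fold change 3.01 ± 0.19 (SE), adjusted p = 8.8e-05). Another (*Eucgr.D01105*) measured 306, 269.9 and 289 FPKM in the triploid buds, against 88, 90.1 and 93.7 FPKM in the diploid buds (log2 fold change 1.89 ± 0.10 (SE), adjusted p = 5.3e-05). Terpene synthases form families of similar copies, so how the counting divided reads between copies is uncertain. Summed over the list, the level was 761, 706 and 762 FPKM in the triploid buds, against 256, 247 and 289.9 FPKM in the diploid buds, with no overlap between the groups.

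A probable WRKY9 gene (*Eucgr.G00619*), a transcription factor of the WRKY family, measured 72.2, 64.6 and 72.3 FPKM in the triploid buds, against 15.6, 15.3 and 16.2 FPKM in the diploid buds (log2 fold change 2.38 ± 0.10 (SE), adjusted p = 2.9e-05). The WRKY list as a whole did not share this direction: 9 of 47 tested members were called higher and 10 lower (median log2 fold change −0.29). Under library totals alone the list had 6 higher and 15 lower. Of the flavonoid genes, 12 of 56 tested members were called higher and 14 lower (median log2 fold change −0.06). A probable chalcone isomerase 3 gene (*Eucgr.G03138*), of the chalcone isomerase family, measured 785, 774 and 712 FPKM in the triploid buds, against 241, 241 and 380.05 FPKM in the diploid buds (log2 fold change 1.63 ± 0.16 (SE), adjusted p = 0.00056). Genes described as flavonoid 3′-monooxygenase (*Eucgr.D00209*) and flavonoid 3′,5′-hydroxylase 1 (*Eucgr.D00200*), which add hydroxyl groups to the B ring, rose by 3.78 and 3.01 on the log2 scale (edgeR adjusted p = 0.00039 and 0.00015).

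**Figure D2:**
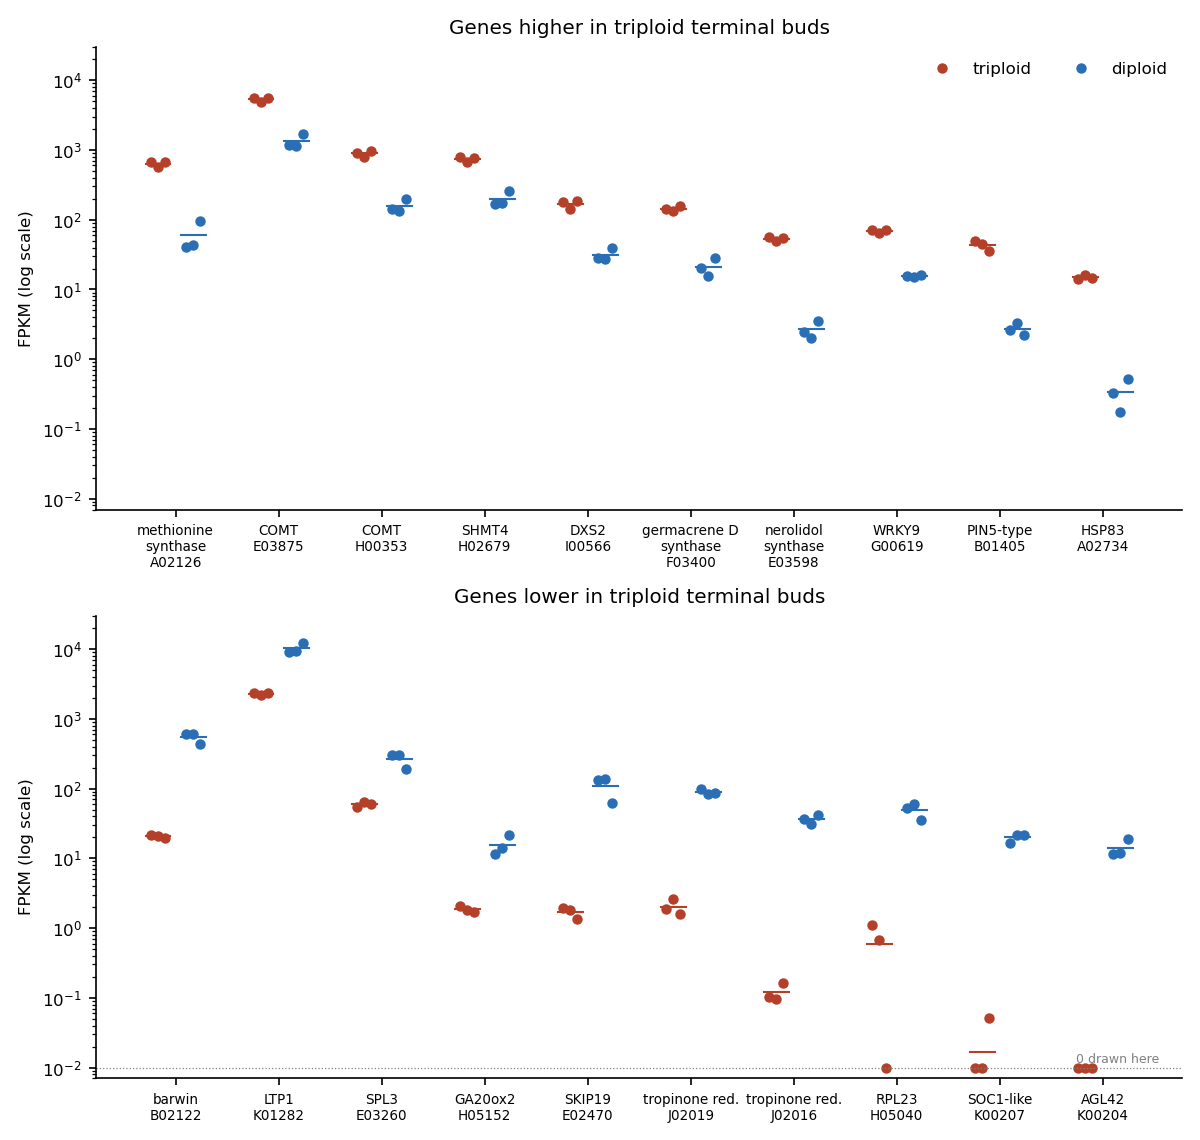
FPKM on a log scale in each of 3 triploid (red, left) and 3 diploid (blue, right) terminal bud libraries, with lines at the group means; values of 0 are drawn at the dotted line. In all 20 genes the triploid and diploid libraries do not overlap, which the naming rule required of those taken for the largest change. Over all tested genes, every triploid library lay above every diploid one in 15.4% and below in 38.1%. The AGL42 gene K00204 is at 0 in every triploid bud.

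Of 20 tested genes with the Gene Ontology (GO) term phloem development, the term with the largest share of higher calls, 14 were called higher and none lower (median log2 fold change 1.29), among them genes for SIEVE ELEMENT OCCLUSION proteins, which plug sieve tubes after wounding. Without diploid bud library 3 the counts were 13 and none, and with library totals alone 14 and none. The wider list of vascular markers has as a most abundant member a mitotic checkpoint protein BUB3.3 gene, also in the cell cycle list. Of the vascular list, 22 of 52 tested members were called higher and 4 lower (median log2 fold change 0.38). From this list the rule named a *SIEVE ELEMENT OCCLUSION B* gene (*Eucgr.H00209*), at 3.37, 2.25 and 2.17 FPKM in the triploid buds, against 0.315, 0.178 and 0 FPKM in the diploid buds (log2 fold change 4.11 ± 0.92 (SE), adjusted p = 0.014, and an adjusted p of 0.0572 without triploid library 1). As genes chosen after their values were seen, the more abundant copy *Eucgr.H00200* measured 267, 262 and 282 FPKM in the triploid buds, against 145, 154 and 110.2 FPKM in the diploid buds (log2 fold change 1.20 ± 0.17 (SE), adjusted p = 0.0023), and *APL* (*Eucgr.F04475*), a MYB factor needed for phloem identity in Arabidopsis, measured 31.5, 32.7 and 24 FPKM in the triploid buds, against 7.59, 7.85 and 3.08 FPKM in the diploid buds (log2 fold change 2.45 ± 0.37 (SE), adjusted p = 0.0029). The 4 vascular markers called lower, looked at after their values were seen, included MYB86 and MYB4 genes, which act in phenylpropanoid and wall formation. Whether the buds sampled held different amounts of vascular tissue was not tested. Several SIEVE ELEMENT OCCLUSION genes lie next to each other on chromosome 8, so the division of reads between them is uncertain. *NAC83* (*Eucgr.H03362*), a NAC factor that represses vessel formation in Arabidopsis, measured 134, 139.6 and 129 FPKM in the triploid buds, against 73.2, 72.2 and 77.4 FPKM in the diploid buds (log2 fold change 1.08 ± 0.09 (SE), adjusted p = 0.00021).

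More genes of protein synthesis were called higher than lower. Of the genes for cytosolic ribosomal proteins, 98 of 205 tested members were called higher and 11 lower (median log2 fold change 0.45), beside a median of −0.04 over all genes. Under library totals alone 54 were higher and 14 lower, a median of 0.22, so the direction held and the count fell by more than 1.5 times. Their summed level was 90206, 89019.9 and 95032 FPKM in the triploid buds, against 81540.3, 81756 and 65501 FPKM in the diploid buds, and diploid library 3 was the lowest. Changes were mostly small among the members called higher, where 8 of the 98 reached 2-fold. Of the 11 called lower, 7 fell by 2-fold or more. By description alone, 55 of 101 were called higher and 3 lower, and the other members came from GO terms. Of 73 proteasome genes by KEGG pathway, 30 were called higher and 5 lower, against 12 and 10 under library totals alone. Other routes of protein breakdown did not share that excess: ubiquitin mediated proteolysis had 28 higher and 29 lower of 185 genes, and autophagy 1 and 10 of 46 (median log2 fold change −0.35). By GO term, ribosomal large subunit assembly had 19 higher and 1 lower of 30 (10 and 1 under library totals alone), and constituents of the nuclear pore 11 higher and 1 lower of 22 (5 and 2), while the term nuclear pore itself had 5 and 5 of 36. Among the members called lower, *RPL23* (*Eucgr.H05040*) measured 1.11, 0.674 and 0 FPKM in the triploid buds, against 52.2, 60.6 and 36 FPKM in the diploid buds (log2 fold change −6.13 ± 0.74 (SE), adjusted p = 0.0012). A single copy of such a protein family is uncertain where other copies are alike.

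Of the list of histone and nucleosome genes, 14 of 33 tested members were called higher and 2 lower (median log2 fold change 0.29). Of these, 19 are described as histones, with 7 higher and 2 lower, and 14 came from the GO term nucleosome alone, with 7 higher and none lower. The last group holds the called member of largest change, a probable protein phosphatase 2C 23 gene (*Eucgr.B02371*), at 7.1, 7.37 and 7.17 FPKM in the triploid buds, against 3.37, 2.65 and 4.3 FPKM in the diploid buds (log2 fold change 1.301 ± 0.16 (SE), adjusted p = 0.0014). A histone H2A gene (*Eucgr.K03160*), the most abundant of them, measured 2741, 2719 and 2882 FPKM in the triploid buds, against 2069, 2139 and 2490.1 FPKM in the diploid buds (log2 fold change 0.54 ± 0.11 (SE), adjusted p = 0.0083). Under library totals alone 5 members of the list were higher and 5 lower, so the excess of higher calls depends on the scaling, and the H2A gene had an adjusted p of 0.056 by edgeR there. With TMM scaling the cell cycle list showed no common direction: 23 of 125 tested members were called higher and 16 lower (median log2 fold change 0.00). Under library totals alone it had 7 higher and 30 lower, where 9.35% and 25.5% of all genes were called higher and lower. Of the heat shock proteins and factors, 20 of 59 tested members were called higher and 3 lower (median log2 fold change 0.39). *HSP90-1* (*Eucgr.E00653*) measured 3.3, 2.79 and 2.67 FPKM in the triploid buds, against 0.317, 0.333 and 0.396 FPKM in the diploid buds (log2 fold change 3.27 ± 0.21 (SE), adjusted p = 8.8e-05), and the abundant *HSC80* (*Eucgr.F03673*) measured 377, 377 and 376 FPKM in the triploid buds, against 243, 252 and 226 FPKM in the diploid buds (log2 fold change 0.87 ± 0.12 (SE), adjusted p = 0.0018).

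Among 111 KEGG pathways of 20 to 400 tested genes, several of central carbon and amino acid metabolism had the highest shares of genes called higher. Butanoate metabolism had 12 higher and 1 lower of 25, and 10 and 3 under library totals alone. The biosynthesis of valine, leucine and isoleucine had 11 higher and 4 lower of 24 under both scalings, and vitamin B6 metabolism 14 and 5 of 31, against 12 and 6 with library totals. In 3 groups the count of higher calls fell by more than 1.5 times under library totals alone: the citrate cycle had 26 higher and 1 lower of 58 genes, against 15 and 5, arginine biosynthesis 18 and 5 of 40, against 11 and 6, and the GO term glycolytic process 32 and 1 of 66, against 16 and 7. Alanine, aspartate and glutamate metabolism had 21 higher and 6 lower of 49, against 15 and 7. These shares stand beside 15.6% called higher over all genes (9.35% under library totals alone), and since the pathways were ranked by this share, no test was made of them. Pathways share genes, and sesquiterpenoid and triterpenoid biosynthesis (15 higher and 7 lower of 37) repeats part of the terpene synthases above.

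**Figure D3:**
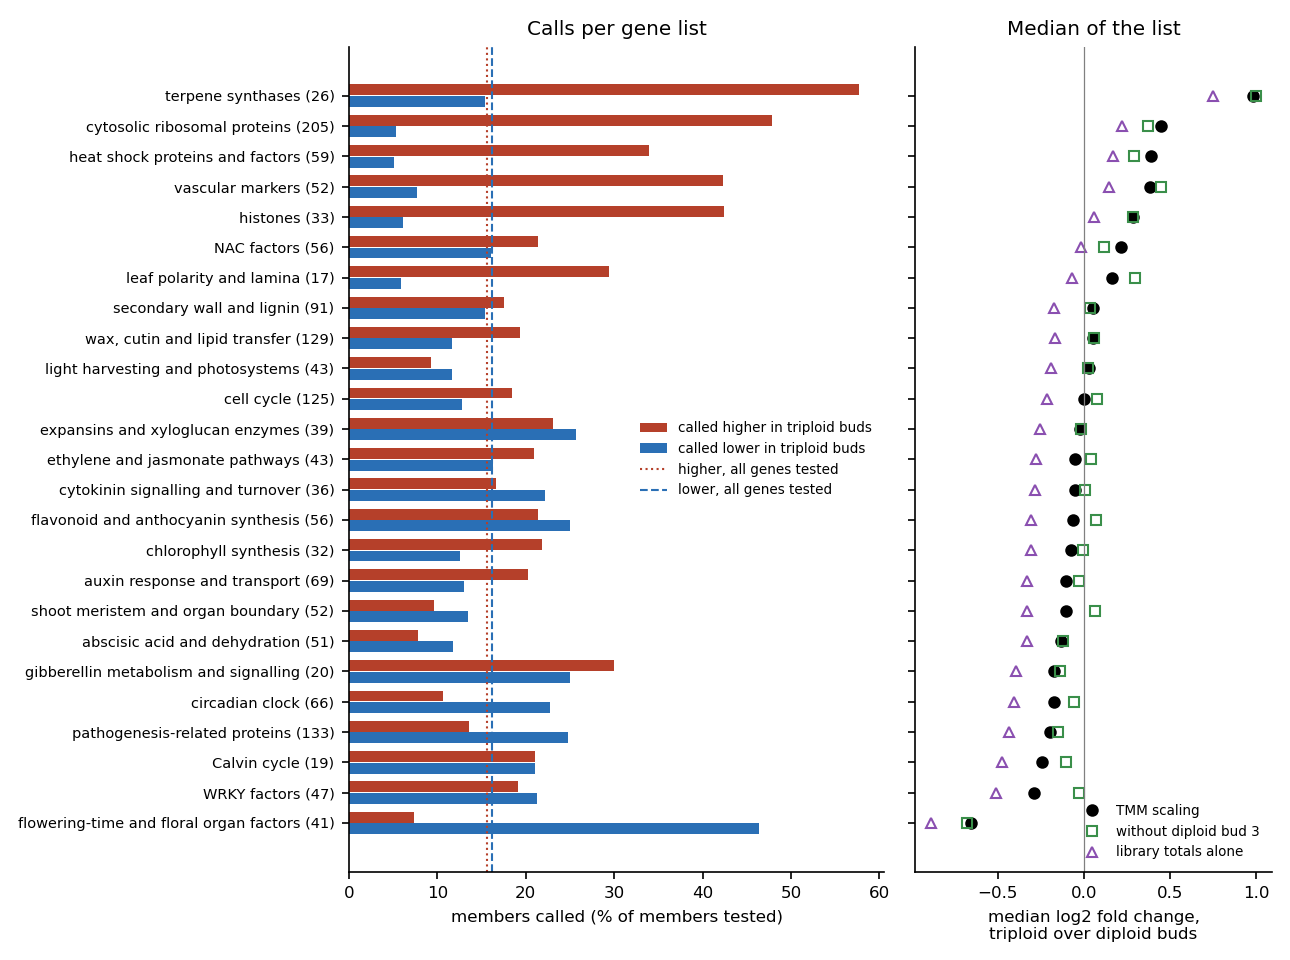
Left, members of each of 25 gene lists called higher (red) and lower (blue) in triploid terminal buds, as a percentage of the tested members (their number in parentheses), with the shares over all tested genes as lines (15.6% higher and 16.1% lower). Right, median log2 fold change of each list with TMM scaling, without diploid bud library 3 and with library totals alone; terpene synthases lie highest and flowering-time factors lowest under each.

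Factors of flowering time had the largest share of members called lower among the 25 lists. Of 41 tested members 19 were called lower (46.3%) and 3 higher, with a median log2 fold change of −0.66. The counts were 5 higher and 22 lower without diploid bud library 3, and 3 higher and 25 lower with scaling by library totals alone. Their summed level was 760.2, 774 and 776 FPKM in the triploid buds, against 1278, 1295 and 1225 FPKM in the diploid buds. *SPL3* (*Eucgr.E03260*), a factor that promotes the transition to flowering in Arabidopsis, measured 54.6, 64.1 and 60.5 FPKM in the triploid buds, against 298, 308 and 188 FPKM in the diploid buds (log2 fold change −1.94 ± 0.22 (SE), adjusted p = 0.001). Genes for the MADS-box factor SOC1, an integrator of flowering signals in Arabidopsis, fell with it. Of the 2 SOC1-like genes named, *Eucgr.K00208* measured 0, 0.022 and 0 FPKM in the triploid buds, against 11.2, 10.7 and 12.5 FPKM in the diploid buds, and *Eucgr.K00207* measured 0, 0 and 0.0505 FPKM in the triploid buds, against 16.6, 21.8 and 21.9 FPKM in the diploid buds (edgeR adjusted p = 4.7e-05 and 5.3e-05). All 3 triploid buds were at or close to 0 in both genes. The 3 members called higher, looked at after their values were seen, were an AGL12-type gene, a flowering locus K homology domain gene and *Eucgr.H04617*, described as an AGL9 homolog. AGL9 is the floral factor SEPALLATA3 in Arabidopsis, and *Eucgr.H04617* measured 60.2, 39.9 and 59.4 FPKM in the triploid buds, against 23.7, 20.4 and 24.5 FPKM in the diploid buds (log2 fold change 1.45 ± 0.18 (SE), adjusted p = 0.0013). The gene was also expressed in leaves, at 27.2 ± 2.62 FPKM in triploid young leaves and 33.5 ± 6.14 FPKM in diploid young leaves (SD, n = 3 each).

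Part of this fall came from one stretch of chromosome 11. From *Eucgr.K00191* to *Eucgr.K00208* the table lists MADS-box genes described as AGL42 and SOC1-like among genes with no described product. Of 13 tested genes there 12 were called lower, beside 16.1% over all tested genes. The bounds of this stretch, and of the shorter one below, were set with the values known, so these counts are descriptive only. Of the flowering list, 6 of the 19 members called lower lie in that stretch, and 13 of the other 35 tested members were lower elsewhere. The gene *Eucgr.K00204* (chromosome 11, 1545379 to 1556921, in the table's coordinates) measured 0, 0 and 0 FPKM in the triploid buds, against 11.6, 12 and 18.7 FPKM in the diploid buds. That is at least 863-fold lower against a floor of 3 counts over the triploid buds (edgeR adjusted p = 9.7e-05). A second AGL42 gene, *Eucgr.K00192* (chromosome 11, 1327260 to 1337554), measured 0, 0 and 0 FPKM in the triploid buds, against 5.15, 10.2 and 14.1 FPKM in the diploid buds, at least 503-fold lower (adjusted p = 0.00061). Of the 13 genes in the table from *Eucgr.K00191* to *Eucgr.K00204*, 10 were at 0 in all 3 triploid buds with at least 50 counts in each diploid bud. These neighbours resemble each other, so reads may have been divided among copies. AGL42 and its neighbours were also near 0 in triploid young leaves, where *Eucgr.K00204* averaged 0.0259 ± 0.0448 FPKM in triploid young leaves and 17.1 ± 0.584 FPKM in diploid young leaves (SD, n = 3 each).

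Among all genes listed, 56 were at 0 counts in all 3 triploid buds with at least 50 counts in each diploid bud. These 56 genes were chosen by those counts, so their lower calls follow from the choice. Their lower bounds ran between 46.4-fold and 1181-fold with a median of 140-fold. Of them, 32 were at 0 in all 12 triploid libraries with counts, leaves included, and 19 had an informative description. By chromosome, 18 were on chromosome 11 (0.956% of its 1883 tested genes), 10 of them in the AGL42 stretch, 11 on chromosome 8 (0.503% of 2187), 7 on chromosome 10 (0.415% of 1687) and 6 on chromosome 5 (0.397% of 1511), beside 0.278% over all tested genes. A further 3 each were on chromosomes 2 and 9, 2 on chromosome 3 and 6 on unplaced scaffolds. The opposite pattern was rare, with 2 genes at 0 in all diploid buds and at least 50 counts in each triploid bud.

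Described genes at 0 in the triploid buds included a glutathione S-transferase (*Eucgr.H01166*), of the enzymes that conjugate glutathione, at 0, 0 and 0 FPKM in the triploid buds, against 12.3, 13.5 and 25.1 FPKM in the diploid buds, at least 816-fold lower. A tropinone reductase-like 1 gene (*Eucgr.K01710*), of the short-chain dehydrogenases, measured 0, 0 and 0 FPKM in the triploid buds, against 13.6, 13.5 and 15.3 FPKM in the diploid buds, at least 764-fold lower. A nuclear transport factor 2-like gene (*Eucgr.L03170*) was at least 636-fold lower. A second methionine synthase-like gene (*Eucgr.L02766*) measured 0, 0 and 0 FPKM in the triploid buds, against 5.63, 4.28 and 5.62 FPKM in the diploid buds, at least 76.5-fold lower, the opposite direction to *Eucgr.A02126*. Close to 0 were tropinone reductase homologs on chromosome 10, where *Eucgr.J02016* measured 0.104, 0.0964 and 0.161 FPKM in the triploid buds, against 36.9, 31.5 and 41.8 FPKM in the diploid buds (log2 fold change −7.92 ± 0.20 (SE), adjusted p = 1.2e-05). Its neighbour *Eucgr.J02019* measured 1.87, 2.57 and 1.56 FPKM in the triploid buds, against 99.9, 84 and 87.6 FPKM in the diploid buds (log2 fold change −5.27 ± 0.21 (SE), adjusted p = 2.9e-05). By KEGG pathway, tropane, piperidine and pyridine alkaloid biosynthesis, which holds such reductases, had 5 higher and 15 lower of 37 genes. The copies are similar in description, so their single values are uncertain.

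The F-box gene *SKIP19* (*Eucgr.E02470*), whose family marks proteins for degradation, measured 1.93, 1.84 and 1.33 FPKM in the triploid buds, against 133, 136 and 62.1 FPKM in the diploid buds (log2 fold change −5.81 ± 0.40 (SE), adjusted p = 0.00011). The ankyrin repeat gene *ITN1* (*Eucgr.E01651*), which acts in salt tolerance in Arabidopsis, measured 0.295, 0.103 and 0.226 FPKM in the triploid buds, against 19, 19.9 and 17 FPKM in the diploid buds (log2 fold change −6.21 ± 0.32 (SE), adjusted p = 4.7e-05). *SIZ1* (*Eucgr.B02476*), a SUMO ligase, measured 0.276, 0 and 0.56 FPKM in the triploid buds, against 20.2, 18.2 and 19.7 FPKM in the diploid buds (log2 fold change −5.87 ± 0.76 (SE), adjusted p = 0.0016). In each of them the lowest diploid library was well above the highest triploid one, where the naming rule required no overlap.

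The summed level of defence proteins was lower in triploid buds, while their genes moved both ways. Of the pathogenesis-related proteins, 18 of 133 tested members were called higher and 33 lower (median log2 fold change −0.19), and by GO term chitinase activity had 2 higher and 15 lower of 36 genes. The list summed to 8050.1, 7969.8 and 8482 FPKM in the triploid buds, against 13120.5, 13163 and 12903 FPKM in the diploid buds, with no overlap. These sums carry no TMM scaling. In FPKM, 38.1% of all tested genes lay wholly below in triploid buds and 15.4% wholly above. A barwin gene (*Eucgr.B02122*), a chitin-binding protein of the PR-4 type, measured 21.6, 20.9 and 19.7 FPKM in the triploid buds, against 613, 612 and 438 FPKM in the diploid buds (log2 fold change −4.53 ± 0.20 (SE), adjusted p = 3.1e-05). The basic endochitinase gene *Eucgr.L00937* measured 0, 0 and 0.871 FPKM in the triploid buds, against 18.2, 23.1 and 63 FPKM in the diploid buds (log2 fold change −6.66 ± 1.13 (SE), adjusted p = 0.0046), a gene in which diploid library 3 was by far the highest. The most abundant member, described as major allergen Pru ar 1 (*Eucgr.H03981*), measured 2874, 2872 and 3107 FPKM in the triploid buds, against 4278, 4163 and 4282 FPKM in the diploid buds, with an adjusted p of 0.079 by edgeR with TMM scaling and 0.0054 with library totals alone. A defensin gene (*Eucgr.B02620*) measured 766, 703 and 774 FPKM in the triploid buds, against 1199.95, 1198 and 580.3 FPKM in the diploid buds (adjusted p = 0.63), and diploid library 3 was below the triploid buds there. Without that library its adjusted p was 0.00015 by edgeR, at a log2 fold change of −0.51.

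The cuticle list was mixed. Of the wax, cutin and lipid transfer genes, 25 of 129 tested members were called higher and 15 lower (median log2 fold change 0.05). Under library totals alone the list had 21 higher and 27 lower. Its summed level was 18779.9, 17863 and 19282 FPKM in the triploid buds, against 28059.5, 28637 and 27684 FPKM in the diploid buds, and much of this gap lay in a single gene for non-specific lipid-transfer protein 1. That gene, *Eucgr.K01282*, measured 2362, 2179.7 and 2312 FPKM in the triploid buds, against 9146, 9406 and 12406 FPKM in the diploid buds (log2 fold change −1.94 ± 0.13 (SE), adjusted p = 0.00012). The neighbouring gene of the same description, *Eucgr.K01283*, measured 9627, 8919 and 10159 FPKM in the triploid buds, against 11255, 11663 and 9036 FPKM in the diploid buds (adjusted p = 0.81). Reads that fit both copies cannot be assigned with certainty, so the split between these neighbours is uncertain. *WIN1* (*Eucgr.C04221*), an AP2 factor that promotes cuticle formation in Arabidopsis, measured 0.688, 0.614 and 0.453 FPKM in the triploid buds, against 3.57, 3.73 and 5.69 FPKM in the diploid buds (log2 fold change −2.62 ± 0.30 (SE), adjusted p = 0.00093). *KCS13* (*Eucgr.F02683*), a 3-ketoacyl-CoA synthase of very long chain fatty acids, went the other way at 10.1, 9.83 and 11.1 FPKM in the triploid buds, against 2.5, 1.76 and 1.69 FPKM in the diploid buds (log2 fold change 2.60 ± 0.21 (SE), adjusted p = 0.00023).

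**Figure D4:**
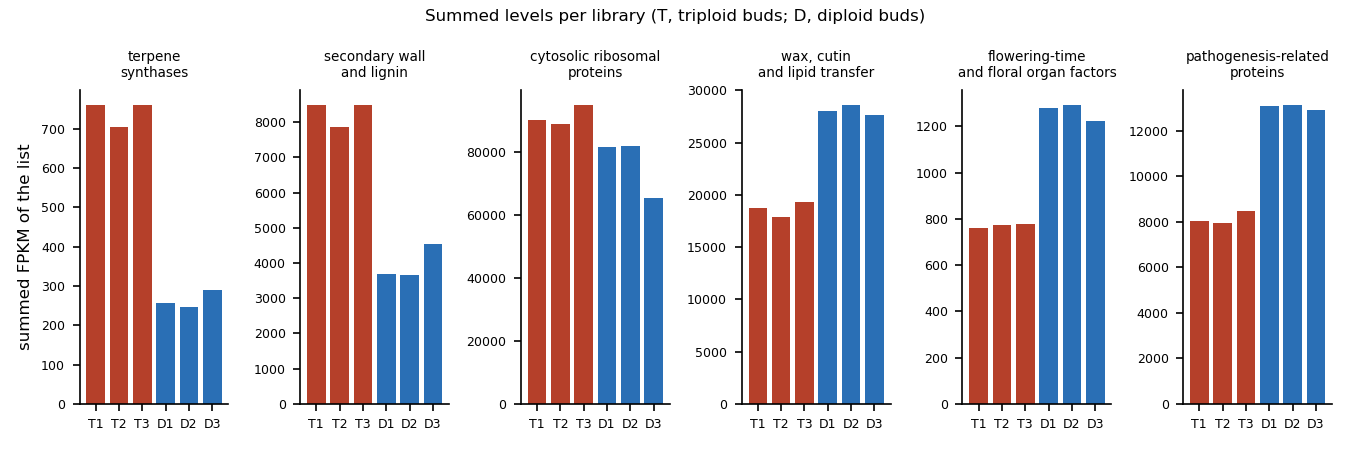
Summed FPKM, without TMM scaling, of 6 gene lists (one panel each, y axis from 0) in triploid terminal buds 1 to 3 (T1 to T3, red) and diploid terminal buds 1 to 3 (D1 to D3, blue). Terpene synthases sum to 706 to 762 FPKM in triploid buds against 247 to 290 FPKM in diploid buds, and flowering-time factors to 760.2 to 776 FPKM against 1225 to 1295 FPKM.

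Genes of hormone pathways moved both ways, beside 15.6% called higher and 16.1% lower over all genes. *GA20ox2* (*Eucgr.H05152*), a gibberellin 20-oxidase that makes active gibberellin precursors, measured 2.08, 1.81 and 1.7 FPKM in the triploid buds, against 11.4, 14.2 and 21.4 FPKM in the diploid buds (log2 fold change −2.83 ± 0.23 (SE), adjusted p = 0.00023). A gibberellin 2-beta-dioxygenase (*Eucgr.D00297*), which inactivates gibberellins, measured 2.64, 4.35 and 3.99 FPKM in the triploid buds, against 1.4, 0.607 and 1.92 FPKM in the diploid buds (log2 fold change 1.72 ± 0.40 (SE), adjusted p = 0.016). Gibberellin-regulated protein 6 (*Eucgr.K02472*) measured 243, 237 and 254 FPKM in the triploid buds, against 183, 179 and 152 FPKM in the diploid buds (log2 fold change 0.73 ± 0.13 (SE), adjusted p = 0.0054). Of these the first was lower, and the other 2 higher, in every triploid library. The gibberellin 2-beta-dioxygenase lost its call when triploid library 2 or 3 was left out (adjusted p = 0.059 and 0.060 by edgeR). The more abundant gibberellin-regulated protein 1 (*Eucgr.B03366*) measured 1837, 1893 and 1919 FPKM in the triploid buds, against 3144, 3017 and 1575 FPKM in the diploid buds (edgeR adjusted p = 0.53). Without diploid library 3 its log2 fold change was −0.54, at an adjusted p of 2.7e-05 by edgeR. Of the whole gibberellin list, 6 of 20 tested members were called higher and 5 lower (median log2 fold change −0.17). *LOG1* (*Eucgr.F03544*), which releases active cytokinin, measured 39.8, 43.8 and 41.4 FPKM in the triploid buds, against 120.02, 122 and 84 FPKM in the diploid buds (log2 fold change −1.17 ± 0.18 (SE), adjusted p = 0.0032). *GH3.9* (*Eucgr.K03463*), of the enzymes that conjugate auxin to amino acids, measured 19.2, 20.9 and 18.7 FPKM in the triploid buds, against 5.1, 4.75 and 4.71 FPKM in the diploid buds (log2 fold change 2.23 ± 0.11 (SE), adjusted p = 4.5e-05). These last 2 genes moved in opposite directions. Among the auxin genes, 14 of 69 tested members were called higher and 9 lower (median log2 fold change −0.10). By GO term, auxin homeostasis had 10 higher and 2 lower of 23 genes (10 and 3 under library totals alone) and auxin biosynthetic process 8 and 2 of 21. Allene oxide cyclase (*Eucgr.F02479*), a step of jasmonate synthesis, had a log2 fold change of 0.73 (edgeR adjusted p = 0.0027), and of the ethylene and jasmonate list, 9 of 43 tested members were called higher and 7 lower (median log2 fold change −0.05). A senescence-associated NAC29 gene (*Eucgr.B03208*) measured 0.223, 0.392 and 0.457 FPKM in the triploid buds, against 4.67, 3.9 and 5.78 FPKM in the diploid buds (log2 fold change −3.46 ± 0.32 (SE), adjusted p = 0.00039). Of all NAC factors, 12 of 56 tested members were called higher and 9 lower (median log2 fold change 0.21). Under library totals alone 5 NAC factors were higher and 12 lower.

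Of the shoot meristem and organ boundary list, 5 of 52 tested members were called higher and 7 lower (median log2 fold change −0.10), or 9.62% and 13.5%, beside 15.6% and 16.1% over all genes. Without diploid bud library 3 it had 14 higher and 11 lower, the higher share then being above the 22.6% over all genes. The called member of largest change was *CLAVATA1* (*Eucgr.H00963*), the receptor that restricts the stem cell zone in Arabidopsis, at 12.9, 12.5 and 9.21 FPKM in the triploid buds, against 2.56, 2.81 and 1.1 FPKM in the diploid buds (log2 fold change 2.62 ± 0.37 (SE), adjusted p = 0.0023). Of the leaf polarity and lamina list, 5 of 17 tested members were called higher and 1 lower (median log2 fold change 0.17), against 8 and 2 without that library and 3 and 2 under library totals alone. *YABBY1* (*Eucgr.E01474*), which marks the lower side of the leaf, measured 207, 189 and 206 FPKM in the triploid buds, against 80.5, 113 and 148 FPKM in the diploid buds (log2 fold change 1.05 ± 0.18 (SE), adjusted p = 0.0052). A more abundant gene of that description (*Eucgr.D02474*) measured 327, 314 and 343 FPKM in the triploid buds, against 209, 209 and 350 FPKM in the diploid buds (log2 fold change 0.59 ± 0.18 (SE), adjusted p = 0.038). Its groups overlapped, and with library totals alone its adjusted p was 0.21 by edgeR. *GRF3* (*Eucgr.A01534*), a growth-regulating factor of young leaves, measured 54.6, 47.6 and 48 FPKM in the triploid buds, against 27, 27.2 and 34.6 FPKM in the diploid buds (log2 fold change 0.99 ± 0.11 (SE), adjusted p = 0.0009). Of the expansins and xyloglucan enzymes, 9 of 39 tested members were called higher and 10 lower (median log2 fold change −0.02), and the abundant *expansin-A1* (*Eucgr.G02490*), a wall-loosening protein, measured 586, 572 and 596 FPKM in the triploid buds, against 483, 484 and 449 FPKM in the diploid buds (log2 fold change 0.53 ± 0.11 (SE), adjusted p = 0.011). Without triploid library 1 or 3 its adjusted p was 0.056 and 0.0571 by edgeR. The also abundant *expansin-A4* (*Eucgr.B02355*) went the other way, at 149, 150 and 155 FPKM in the triploid buds, against 238, 237 and 319 FPKM in the diploid buds (log2 fold change −0.57 ± 0.11 (SE), adjusted p = 0.0083). With library totals alone its adjusted p was 0.0037 by edgeR.

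List counts for the green leaf stand beside 15.6% called higher and 16.1% lower over all genes (9.35% and 25.5% under library totals alone). Of the light harvesting and photosystem genes, 4 of 43 tested members were called higher and 5 lower (median log2 fold change 0.03), against 12 and 10 without diploid bud library 3. With all 6 libraries these were 9.3% and 11.6%, below the shares over all genes. Of the chlorophyll synthesis genes, 7 of 32 tested members were called higher and 4 lower (median log2 fold change −0.07), among them the isoprenoid gene *Eucgr.I00566*, which that list holds through its GO terms. Of the Calvin cycle genes, 4 of 19 tested members were called higher and 4 lower (median log2 fold change −0.24). Under library totals alone the photosystem list had 3 higher and 12 lower, chlorophyll synthesis 3 and 9, and the Calvin cycle 2 and 8. The most abundant light harvesting or photosystem member (*Eucgr.E02381*, with no described product) measured 14448, 15075 and 13257 FPKM in the triploid buds, against 11089, 11227 and 7011 FPKM in the diploid buds (log2 fold change 0.75 ± 0.23 (SE), adjusted p = 0.040). Its adjusted p was 0.060 by edgeR with library totals alone. *Lhca5* (*Eucgr.F00228*), a light-harvesting protein of photosystem I, was lower, at 45.5, 48.2 and 48 FPKM in the triploid buds, against 104, 102 and 113 FPKM in the diploid buds (log2 fold change −0.95 ± 0.09 (SE), adjusted p = 0.00036). *CP12-1* (*Eucgr.H01016*), which binds Calvin cycle enzymes in the dark, measured 406, 388 and 431 FPKM in the triploid buds, against 1097, 1077 and 877 FPKM in the diploid buds (log2 fold change −1.10 ± 0.15 (SE), adjusted p = 0.0018). Of the circadian clock list, 7 of 66 tested members were called higher and 15 lower (median log2 fold change −0.17), and the abundant *Eucgr.H02679* in it is the serine hydroxymethyltransferase described above. Of the abscisic acid and dehydration list, 4 of 51 tested members were called higher and 6 lower (median log2 fold change −0.13), and of the cytokinin list, 6 of 36 tested members were called higher and 8 lower (median log2 fold change −0.05). Among GO terms of light signalling, the response to absence of light had 2 higher and 9 lower of 22 genes, and red or far-red light signalling 4 and 11 of 28.

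By chromosome, the median log2 fold change of tested genes lay between −0.10 on chromosome 5 and 0.01 on chromosome 4. Chromosome 4 had the largest share called higher (20.02%) and chromosome 5 the largest share called lower (19.8%).

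The bud difference was set against that of young leaves, the next stage, in one edgeR fit of the 12 libraries of both stages. Of 21137 genes tested, 2468 (11.7%) had a ploidy difference in buds unlike that in young leaves, 1284 above it (6.07%) and 1184 below it (5.6%). With library totals alone 805 were above and 2109 below, so this split also depends on the scaling. The methionine synthase *Eucgr.A02126* averaged 638 ± 62.2 FPKM in triploid buds and 59.9 ± 30.9 FPKM in diploid buds, against 187 ± 40.9 FPKM in triploid young leaves and 275 ± 103 FPKM in diploid young leaves (SD, n = 3 each). Its ploidy difference was higher in buds by 4.22 ± 0.46 (SE), adjusted p = 0.00011, on the log2 scale. The methyltransferase *Eucgr.E03875* averaged 5336 ± 333 FPKM in triploid buds and 1332 ± 312 FPKM in diploid buds, and 1231 ± 29.4 FPKM in triploid young leaves and 1956 ± 497 FPKM in diploid young leaves, a difference of 2.90 ± 0.27 (SE), adjusted p = 3.2e-05. For the germacrene D synthase *Eucgr.F03400* the means were 145 ± 10.02 FPKM in triploid buds and 21.2 ± 6.22 FPKM in diploid buds, and 35.9 ± 1.88 FPKM in triploid young leaves and 57.6 ± 15.9 FPKM in diploid young leaves, a difference of 3.69 ± 0.29 (SE), adjusted p = 1.9e-05. In these 3 genes the diploid mean was the higher one in young leaves and the lower one in buds. Of 30 terpene synthases tested, 10 had a bud difference above that of young leaves and none below, and of 43 flowering-time genes 3 were above and 8 below. Of 207 ribosomal proteins 15 were above and none below, close to the 6.07% above over all genes.

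Some genes were higher in the triploid at both stages. In triploid and diploid young leaves the nerolidol synthase *Eucgr.E03598* averaged 13.2 ± 1.04 and 5.29 ± 1.41 FPKM, and the PIN5-type *Eucgr.B01405* 3.47 ± 0.775 and 1.26 ± 0.364 FPKM. The flavonoid 3′-monooxygenase gene *Eucgr.D00209* averaged 13.6 ± 0.845 and 0.783 ± 0.194 FPKM there (SD, n = 3 each). Others were lower in the triploid at both stages. The barwin gene *Eucgr.B02122* averaged 3.1 ± 0.505 FPKM in triploid young leaves and 180.1 ± 44.4 FPKM in diploid young leaves (SD, n = 3 each), and its ploidy difference in buds was the smaller fall, by 1.33 ± 0.31 (SE), adjusted p = 0.015. *SPL3* (*Eucgr.E03260*) averaged 41.6 ± 2.65 FPKM in triploid young leaves and 133 ± 32.2 FPKM in diploid young leaves, with a stage difference of −0.26 ± 0.32 (SE), adjusted p = 0.67. The lipid-transfer gene *Eucgr.K01282* averaged 830.4 ± 146 FPKM in triploid young leaves and 4875 ± 378 FPKM in diploid young leaves, with a stage difference of 0.60 ± 0.22 (SE), adjusted p = 0.09. A p-value above the threshold does not show that the differences were alike at both stages.

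**Figure D5:**
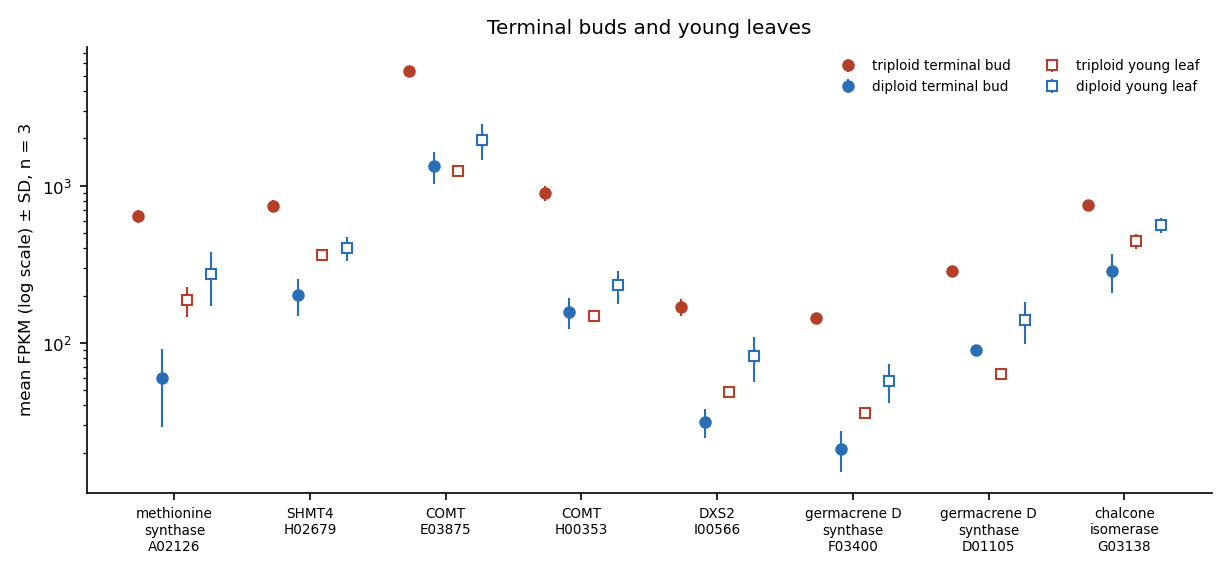
Mean FPKM on a log scale with SD (n = 3 libraries each) of 8 genes chosen for display, in terminal buds (filled circles) and young leaves (open squares) of triploid (red) and diploid (blue) plants. In terminal buds each gene is higher in the triploid, while in young leaves the triploid mean is the lower one in all 8 genes. Other genes, not drawn, were higher in the triploid at both stages, such as the nerolidol synthase *Eucgr.E03598*.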

How the data were processed

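RNA was sequenced from terminal buds and 3 leaf stages of triploid and diploid *E. urophylla*. The authors deposited read counts per gene and FPKM values of 26033 genes with *E. grandis* identifiers, descriptions, and GO and KEGG terms. The submitters' processing notes name HISAT2 2.0, StringTie 1.3.0 and Bowtie 0.12.2, and a mouse genome build that does not match the identifiers, so the assembly behind the coordinates is taken from the table alone. The labels name poly(A) selection and the paper a total RNA kit, and the strand setting of the counting is not given in the sources used here. Values up to 0.0001 FPKM counted as 0. Counts of 22 libraries and FPKM of 24 were used, and 2 per-sample columns were not tied to a library and not used.

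Counts of the 6 bud libraries were fitted with edgeR 4.0.16 (TMM, filterByExpr, robust quasi-likelihood test, Benjamini-Hochberg), and 12 bud and young leaf libraries for the difference between stages. Alternatives used median-ratio factors, library totals alone, DESeq2 1.42.0, limma 3.58.1 on log2(FPKM + pseudocount of 1 or 0.1) over genes averaging 0.5 FPKM or more, no low-count filter, all libraries, a replicate block and each library left out. The scripts were tested on simulated counts. A fold against a group at 0 counts is a lower bound against a floor of 3 counts over the group, covering counting error only, and list medians were the same with such genes at their bound. The named genes are the 15 each way of largest change among called genes with an informative description, at least 5 FPKM in the higher group and no overlap between groups, and from each of 25 lists the 2 called members of largest change and the 2 most abundant members, some passed over. Members and lists were chosen with earlier results of these data known. GO terms and KEGG pathways of 20 to 400 tested genes were ranked by their share of calls, and up to 8 each way described, without a set test, beside related terms and pathways chosen after their values were seen.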

Additional observations from a re-analysis of the deposited data

Results flagged for a closer look

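Ploidy differences in terminal buds that differed from those in young leaves are listed here, by edgeR's test of the difference between stages (triploid minus diploid in buds, minus the same in young leaves), on the log2 scale at an adjusted p under 0.05. In all, 2468 of 21137 genes passed this test. No group of 3 libraries was searched for single outlying libraries.

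Among transport, wall and chaperone genes the values were 5.04 for *Eucgr.D01087*, 4.97 for *Eucgr.A02734*, 3.17 for *Eucgr.J02996*, 3.04 for *Eucgr.F03827*, 2.76 for *Eucgr.B01405*, 3.06 for *Eucgr.F03778*, 3.30 for *Eucgr.D01684*, 2.35 for *Eucgr.C01329*, 3.35 for *Eucgr.K00781* and 2.86 for *Eucgr.E00653*. Of the genes of one-carbon, lignin, flavonoid and terpene metabolism, they were 4.22 for *Eucgr.A02126*, 2.28 for *Eucgr.H02679*, 4.66 for *Eucgr.C03859*, 2.90 for *Eucgr.E03875*, 3.38 for *Eucgr.H00353*, 1.97 for *Eucgr.G03138*, −1.05 for *Eucgr.D00200*, 3.41 for *Eucgr.I00566*, 3.23 for *Eucgr.E03598*, 3.69 for *Eucgr.F03400* and 3.03 for *Eucgr.D01105*. Positive values say that the triploid was higher relative to the diploid in buds than in young leaves.

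For transcription factors and developmental genes the values were 1.43 for *Eucgr.H00963*, 1.60 for *Eucgr.E01474*, 0.73 for *Eucgr.A01534*, 1.74 for *Eucgr.H04617*, 2.10 for *Eucgr.F04475*, 1.19 for *Eucgr.H03362*, 2.67 for *Eucgr.G00619*, −4.10 for *Eucgr.K00208* and −6.74 for *Eucgr.B03208*. The last gene had 0.0134 FPKM in triploid young leaves and 0 in diploid ones, so its value rests on very low levels. For hormone, histone and light-harvesting genes they were 0.80 for *Eucgr.K03463*, −1.87 for *Eucgr.H05152*, 1.72 for *Eucgr.D00297*, 0.63 for *Eucgr.K03160* and −0.80 for *Eucgr.F00228*. For defence genes and genes near 0 in triploid buds they were 1.33 for *Eucgr.B02122*, 0.68 for *Eucgr.H03981*, −2.74 for *Eucgr.E01651*, −2.86 for *Eucgr.B02476*, 3.88 for *Eucgr.J02016* and 3.19 for *Eucgr.J02019*. *Eucgr.K00208*, *Eucgr.J02016* and *Eucgr.J02019* were near 0 in the triploid at both stages, where a ratio of small counts sets the value.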

How the results depend on the processing

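All counts are of genes called higher and lower in triploid buds. Without TMM the count moved to 1881 and 5138 with library totals alone, to 2001 and 5051 by limma on log2(FPKM + 1), and to 1961 and 4994 with a pseudocount of 0.1. limma on FPKM scaled by the median ratio called 3107 and 3433, DESeq2 3733 and 3953, edgeR without the low-count filter 3074 and 3197, and edgeR on all 22 libraries with counts 3225 and 4641. At 2-fold or more, library totals alone called 2246 genes lower, limma on log2(FPKM + 1) 631 higher, and scaled limma 1677 in all with 806 lower. For the difference from young leaves, library totals alone called 805 above and 2109 below, and DESeq2 3774 in all with 1930 below. Of the members of the 25 lists, 367 were called higher and 235 lower, and library totals alone called 233 higher. Leaving out each library in turn gave 3897 to 8987 genes called (1943 to 4602 higher, 1954 to 4385 lower), and 2140 to 2783 at 2-fold or more (969 to 1310 higher, 1171 to 1473 lower). The highest counts came without diploid library 3, and the lowest without triploid library 3 or 1 (3897 and 3908 called). For the difference from young leaves the range was 1482 to 3589, with 856 to 2057 above and 626 to 1629 below, lowest without diploid young leaf library 2. A replicate block gave 2563 higher and 2311 lower in buds and 2142 calls for the difference from young leaves, and no call of a named gene changed. Deviations of buds with the same number correlated at −0.01, −0.03 and −0.00, so the numbers share only a name. The lipid-transfer gene *Eucgr.K01283*, not called, changed sign to −0.16 with library totals alone, −0.15 by limma with either pseudocount and −0.088 without diploid library 3 (−0.088 to 0.16 over the libraries left out in turn). The other 65 named genes kept their direction in every setting, while *Eucgr.E02381*, *Eucgr.B02355*, *Eucgr.B03366* and *Eucgr.D02474* were looked at only in the settings given with them. The cause of these changes was not tested. Depth limits genes near 0 counts, and 3 libraries a group limit how well the spread is known.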
